A study of Mus musculus with 6 samples.

Results

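Genes of blood and lymphatic endothelium were examined in tissue around the pylorus of mouse embryos that were labelled knockout or wildtype for Nkx3-2. This gene, formerly Bapx1, encodes a homeodomain protein that acts in the mesenchyme of gut and skeleton. The set was a list of 35 gene symbols, with claudins and cadherins left out, out of 18507 genes named on the array. Of these genes 29 were taken as blood vascular and 6 as lymphatic, namely Flt4, Vegfc, Lyve1, Prox1, Pdpn and Mmrn1. The rule lists names and uses no measured value, although it was drawn up with earlier results of these data known. In all 34 of the 35 were represented, by 39 of 34967 gene probes, and Eng was not analysed here. After the filter on dim spots 32 were tested. Flt1 and Angpt1 were left out, the first near background on 5 of 6 arrays and the second on all 6.

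The tissue was the distal stomach of embryos at E18.5, late in gestation, with a margin of 1 to 2 mm before and after the narrowing at the pylorus. The parents were heterozygous (Bapx1 CRE/+), and embryos were genotyped from yolk sac DNA. Of the embryos 3 were labelled knockout and 3 wildtype littermates, each on 1 one-colour CodeLink array of biotin-labelled cRNA made from 2 µg of total RNA. The leading digits of the animal codes tie each knockout embryo to 1 wildtype embryo, which gave 3 pairs, called litter pairs here. The labels call the wildtype embryos littermates but do not state that these digits mark a litter. Strain background, sex and the structure of the allele are not given in the sources used here.

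Endothelial cells line blood and lymphatic vessels. Vascular endothelial growth factors act on the receptors encoded by Flt1, Kdr and Flt4, angiopoietins act on the receptor encoded by Tek, and ETS, SOX and GATA factors hold the endothelial programme in place. In the gut wall, blood capillaries supply mucosa and muscle, while lymphatic vessels, which depend on Prox1 and on Vegfc signalling through Flt4, drain fluid and, after birth, absorbed fat.

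Signal limits and batches bear on every value. The median spot signal above background was 109 to 207 over local backgrounds of 38 to 46, and 13.2% to 16.7% of gene probes were near background on an array. The processed files of pair 1 carry an earlier date and another layout than those of pairs 2 and 3, which are called batch A and batch B here. Batch A holds 1 array of each label, and batch B holds 2 of each. Nkx3-2 itself differed by 0.11 (SE 0.19, limma adjusted p = 1) between labels, with 0.26, 0.27 and -0.20 in pairs 1, 2 and 3, so its signal did not separate the labels. Whether its probe lies within a deleted stretch is not known here. Stomach epithelium and visceral smooth muscle markers were detected on the arrays, and the endothelial markers Pecam1, Kdr, Tek, Tie1, Emcn and Esam were above background on all 6. In whole tissue, fewer endothelial cells and less RNA per cell cannot be told apart. The number of arrays limits the precision throughout, and values below are log2 normalized intensities unless stated otherwise.

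Promoters of Kdr, Tie1 and Robo4 are shown because these 3 vascular genes read higher in the knockout array of every litter pair and have a single entry in the RefSeq promoter table (GRCm38.p6). The 250 bases before the annotated start are given 5′ to 3′ on the gene's strand. Capitals mark the ETS core, searched as AGGAAG or CGGAAG on both strands, the kind of site that the ETS factors Erg, Fli1 and Ets1 bind. Kdr lies on the minus strand (chr5:75978456-75978705), Tie1 on the minus strand (chr4:118489850-118490099) and Robo4 on the plus strand (chr9:37401722-37401971).
Kdr: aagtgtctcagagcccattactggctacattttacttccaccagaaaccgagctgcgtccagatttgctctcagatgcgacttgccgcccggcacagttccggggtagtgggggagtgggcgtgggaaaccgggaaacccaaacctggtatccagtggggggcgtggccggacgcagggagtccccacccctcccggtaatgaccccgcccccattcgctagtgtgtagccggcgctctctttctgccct
Tie1: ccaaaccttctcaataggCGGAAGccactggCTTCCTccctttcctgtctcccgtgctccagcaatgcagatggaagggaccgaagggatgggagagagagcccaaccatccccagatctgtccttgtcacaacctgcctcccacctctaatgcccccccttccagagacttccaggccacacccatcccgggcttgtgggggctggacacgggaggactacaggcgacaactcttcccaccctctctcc
Robo4: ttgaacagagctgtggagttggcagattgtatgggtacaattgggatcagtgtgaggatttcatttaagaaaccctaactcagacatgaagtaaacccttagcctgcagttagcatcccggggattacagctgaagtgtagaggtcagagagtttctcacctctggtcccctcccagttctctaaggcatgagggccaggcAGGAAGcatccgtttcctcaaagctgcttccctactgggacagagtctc
The Tie1 window held 2 matches, the Robo4 window 1 and the Kdr window 0. Of 19 members with an entry, 9 (47.4%) held the ETS core in this window, against 42.5% of 27025 genes in the table. The GATA motif AGATAA stood in 3 of the 19 (15.8%, against 11.4% of all genes) and the SOX motif ACAAAG in 6 (31.6%, against 18.6%). A match is a description of these letters and no evidence of binding.

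The endothelial genes differed little by label, with 1 gene apart. Vwf, which encodes the von Willebrand factor stored in endothelial granules, lay 1.72-fold higher in the knockout arrays (95% interval 1.23 to 2.39), a log2 difference of 0.78 (SE 0.20). The other 31 tested members had log2 differences of less than 0.3 in size, each with an interval that included 0. No member passed the test across all genes: 0 of 32 had a limma adjusted p under 0.05, as did 0 of 16764 genes (0%). At an unadjusted p under 0.05 there was 1 member, Vwf, which was higher, where 1.13% of all genes had one and 0.871% were higher. With the litter pair as a block Vwf was again the only member with an unadjusted p under 0.05 (0.00464), where 4.53% of all genes had one and 2.74% were higher. Higher differences were the more frequent, 22 of 32 members against 48.1% of all genes, but small: the median was 0.08 over all members, 0.10 over the 26 blood vascular members and -0.01 over all tested genes. Of 29 members with values on all 6 arrays, 7 were higher and 1 was lower in every litter pair, where 11.5% of all genes were higher and 11.6% lower in every pair. This count of 8 (27.6% of 29, against 23% of all genes) was 12 with the authors' per-sample intensities and 13 with median scaling or the series table, where 24.3% to 24.8% of all genes had 1 sign. In this fit without a block the 95% intervals reached a median of 0.53 to either side of the difference. Smaller differences could mostly not be told from 0 in it, and a larger one, Vwf, did not pass the adjusted test. The median SE over members was 0.22 in this fit and 0.12 with batch or litter pair as a block.

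**Figure D1:**
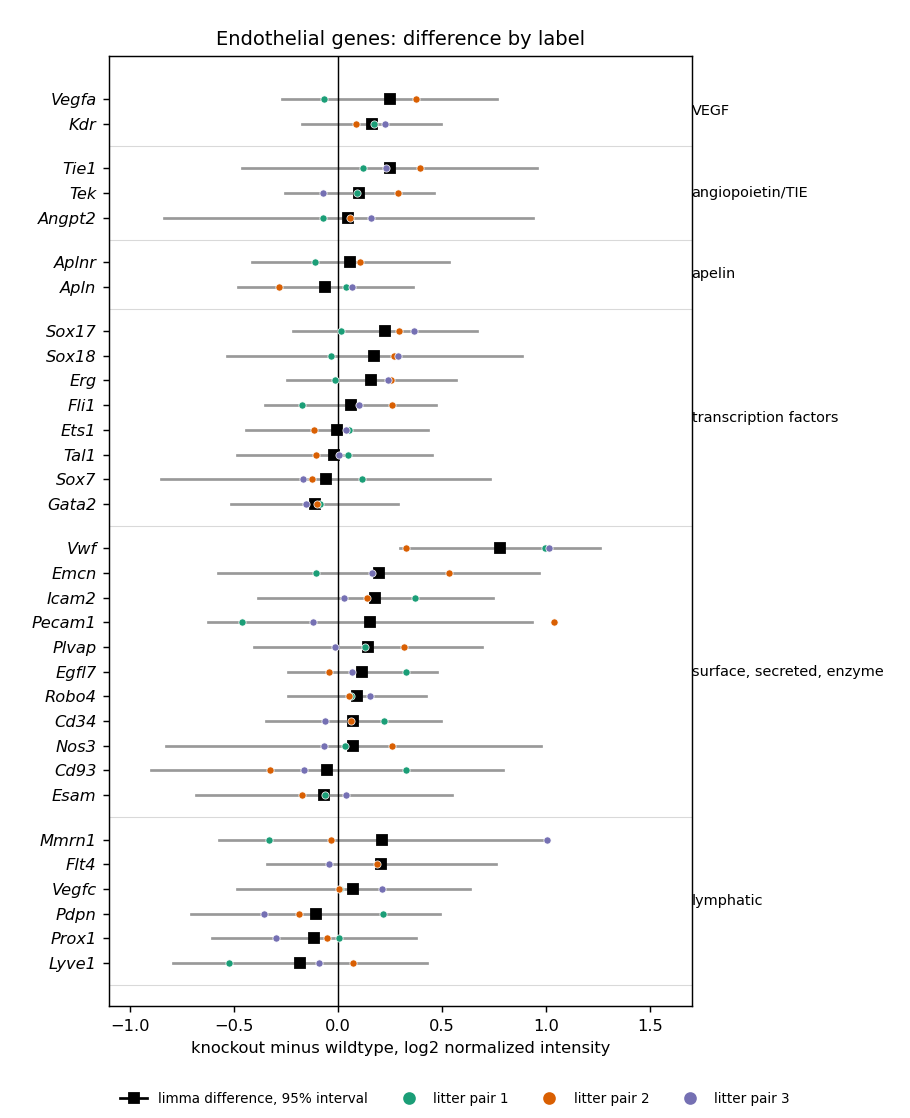
Difference between knockout and wildtype arrays (log2 normalized intensity, horizontal axis) for the 32 tested endothelial genes, grouped by role. Squares are limma differences with 95% intervals and coloured points the difference in each litter pair. Vwf, at 0.78, is the gene whose interval leaves out 0, and the other 31 lie within 0.3 of 0.

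Vwf read 8.28, 8.90 and 8.47 in wildtype replicates 1 to 3 and 9.28, 9.23 and 9.49 in knockout replicates 1 to 3. Every knockout array lay above every wildtype array. The means were 9.33 ± 0.14 and 8.55 ± 0.32 (SD, n = 3 each), and the differences in pairs 1, 2 and 3 were 1.00, 0.33 and 1.01. Its limma adjusted p was 1, and its unadjusted p of 0.00656 ranked 21 among 16764 genes. With batch as a block the difference was 0.78 (SE 0.16, adjusted p = 0.493), and within batch B it was 0.67 (adjusted p = 0.238). Gene by gene limma array weights called 0 genes. Weights fitted by restricted maximum likelihood (REML) called 677 genes (4.04%), with Vwf alone among the members (limma adjusted p = 0.0126). Its unadjusted p was under 0.05 in 21 of 22 alternatives, the exception being the fit without litter pair 3. Over the 22 alternatives its difference stayed between 0.64 and 1.01, with adjusted p from 0.0126 to 1.

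Vwf is also made by megakaryocytes, so markers of that lineage were read beside it. All 11 listed platelet and megakaryocyte genes were tested, and 5 were higher and 6 lower. Their summed intensity spanned 5345 to 8403 in the knockout and 5999 to 7402 in the wildtype arrays. Pf4, the platelet factor 4 gene, differed by 0.02, with 0.91, -0.28 and -0.59 in pairs 1, 2 and 3, Itga2b by 0.02 and the platelet glycoprotein gene Gp9 by -0.25 (SE 0.16). Ppbp, a platelet chemokine gene, differed by -0.51 (SE 0.46). The list's median was 0.07, -0.10 and -0.13 in pairs 1, 2 and 3, where Vwf differed by 1.00, 0.33 and 1.01. Selp, whose product is stored in the same granules as von Willebrand factor, differed by -0.10 (SE 0.24), a gene picked out after its value was seen. The part of megakaryocytes and platelets in the Vwf values was not tested.

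Among the VEGF genes, Kdr, the main signalling receptor of blood endothelium, read 10.79, 10.95 and 10.74 in the wildtype arrays and 10.96, 11.04 and 10.97 in the knockout arrays. Its groups did not overlap, although the lowest knockout and the highest wildtype array nearly touched. The difference was 0.16 (SE 0.14, limma adjusted p = 1), or 1.12-fold with a 95% interval of 0.888 to 1.41. Kdr and Vwf were the 2 members of 32 whose knockout arrays all lay above the wildtype arrays, where 2.51% of all genes did, and in no member did they all lie below (1.52% of all genes). Vegfa, the ligand, read 10.69 and 10.62 in wildtype replicates 1 and 2 and 10.62, 11.00 and 11.09 in the knockout arrays. It differed by 0.25 (SE 0.21) without a value in wildtype replicate 3, whose spot was flagged, by 0.19 with that spot kept and by 0.15 with the litter pair as a block.

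**Figure D2:**
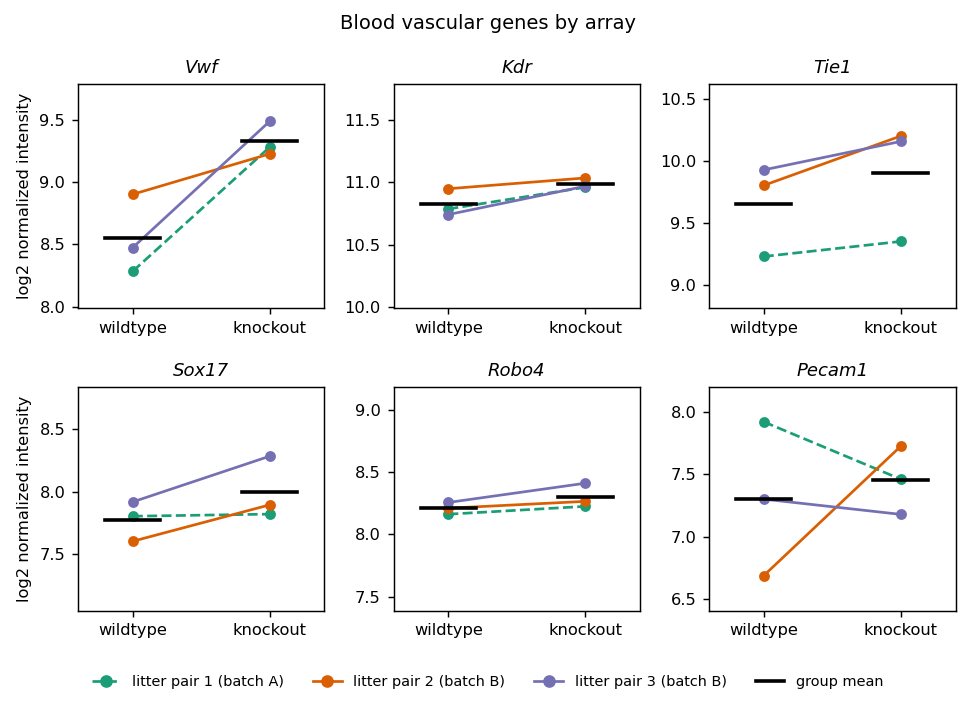
Log2 normalized intensity (vertical axes, each spanning 1.8 log2 units) of 6 blood vascular genes in wildtype and knockout arrays. Lines join litter pairs, dashed for batch A, and black bars are group means. Vwf and Kdr do not overlap between groups, while Pecam1 spreads over 6.69 to 7.92 in the wildtype arrays alone.

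In the fit without a block, the 95% interval included 0 for each tested angiopoietin and apelin gene. Tie1, the orphan partner of the angiopoietin receptor, read 9.23, 9.80 and 9.93 in the wildtype and 9.35, 10.20 and 10.16 in the knockout arrays. The knockout array was the higher in every pair, by 0.12, 0.40 and 0.23, but the groups overlapped because both arrays of pair 1 were low. The difference was 0.25 (SE 0.30), and 0.25 (SE 0.10, unadjusted p = 0.0462, adjusted p = 0.835) with batch as a block, a fit in which 5.83% of all genes and 2 of 32 members (Tie1 and Vwf) had an unadjusted p under 0.05. Leaving out 1 array of pair 1 moved Tie1 most, to 0.04 without wildtype replicate 1 and 0.52 without knockout replicate 1, and it was 0.10 without knockout replicate 2 and 0.12 without knockout replicate 3. It was 0.39 without wildtype replicate 3 and 0.31 within batch B. Tek, the angiopoietin receptor, differed by 0.10 (SE 0.15), and Angpt2, the ligand made by endothelium itself, by 0.05 (SE 0.37). The apelin gene Apln differed by -0.06 (SE 0.18), and its receptor Aplnr, without a value in wildtype replicate 3, by 0.06 (SE 0.19).

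The 8 transcription factors split evenly, 4 higher and 4 lower, with a median difference of 0.03. Sox17, a SOXF factor of arterial endothelium, differed by 0.23 (SE 0.19) and was higher in every pair, by 0.02, 0.29 and 0.37. Its relatives Sox18 and Sox7 differed by 0.17 (SE 0.30) and -0.06 (SE 0.33). The ETS genes gave 0.16 (SE 0.17) for Erg, 0.06 (SE 0.17) for Fli1, which was near background on 1 array, and -0.01 (SE 0.18) for Ets1. Gata2 was the member lower in every pair, by -0.09, -0.10 and -0.15, with a difference of -0.11 (SE 0.17). Tal1, a helix-loop-helix factor of blood and endothelial progenitors, differed by -0.02 (SE 0.20).

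Of the 11 tested surface, secreted and enzyme genes 9 were higher and 2 lower, with a median of 0.12. Pecam1, the general endothelial adhesion molecule, read 7.92, 6.69 and 7.30 in the wildtype and 7.46, 7.73 and 7.18 in the knockout arrays. Its wildtype arrays spread wider than the knockout ones, and pairs 1, 2 and 3 gave -0.46, 1.04 and -0.12, with a difference of 0.15 (SE 0.33). Icam2 (0.18, SE 0.24), an adhesion ligand, and Robo4 (0.09, SE 0.14), a vascular guidance receptor, were higher in every pair. Robo4 read 8.16 to 8.26 in the wildtype and 8.23 to 8.41 in the knockout arrays. Emcn, Plvap, Egfl7, Cd34 and Nos3 differed by 0.07 to 0.20, and Cd93 and Esam by -0.05 and -0.07. The dimmer probe of Emcn, near background on 3 arrays, differed by -0.01, and those of Plvap by -0.02 and 0.06.

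The lymphatic members, set apart, had a median difference of -0.02 with 3 higher and 3 lower, and 0 of 6 passed the test. In pairs 1, 2 and 3 the median was 0.00, -0.02 and -0.07, against 0.04, 0.12 and 0.05 for the blood vascular members. Whether the 2 groups of members differ was not tested. Lyve1, the hyaluronan receptor of lymphatic endothelium and of some macrophages, read 9.07, 8.96 and 9.47 in the wildtype and 8.54, 9.04 and 9.38 in the knockout arrays. Knockout replicate 1 was the low array, and the difference of -0.18 (SE 0.26) became 0.04 without it. Prox1, the factor that specifies lymphatic identity, read 9.05, 8.67 and 8.78 in the wildtype and 9.06, 8.62 and 8.48 in the knockout arrays. The groups overlapped, with a difference of -0.12 (SE 0.21), and of 0.07 at its dimmer probe.

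Pdpn, a mucin-type protein of lymphatic endothelium that mesothelium and stroma also make, read 8.58, 9.34 and 9.38 in the wildtype and 8.80, 9.15 and 9.02 in the knockout arrays. It differed by -0.11 (SE 0.25), and pair 1 went the other way from pairs 2 and 3. Flt4, the VEGF-C receptor, had no value in wildtype replicate 1 and read 9.30 and 9.62 in the others, against 9.94, 9.48 and 9.58. Its difference was 0.21 (SE 0.22), 0.07 with batch as a block and 0.02 with the flagged spot kept. Batch B minus batch A was -0.41, and the missing array is of batch A. Vegfc, its ligand, read 8.90, 8.30 and 8.53 against 8.91, 8.30 and 8.74, a difference of 0.07 (SE 0.23) with the arrays of a pair close together in pairs 1 and 2.

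Mmrn1, the multimerin gene of lymphatic endothelium and platelets, read 9.17, 8.99 and 9.05 in the wildtype and 8.84, 8.96 and 10.06 in the knockout arrays. Knockout replicate 3 stood apart from the other 5 arrays, and the difference was 0.21 (SE 0.33) with it and -0.17 without it. Macrophage markers, read because some macrophages carry Lyve1, had a median difference of 0.02 over 9 tested genes of 12 listed, 7 higher and 2 lower. The median was 0.16, -0.24 and 0.13 in pairs 1, 2 and 3. Their summed intensity spanned 8296 to 10022 in the knockout and 7998 to 10221 in the wildtype arrays. Csf1r and Cd68 were not analysed here, Adgre1 was too dim to test, and C1qa, a complement gene of macrophages, differed by 0.02. Led by test statistic, Cd14, a lipopolysaccharide co-receptor, differed by -0.38 (SE 0.32) and Cx3cr1, a chemokine receptor, by 0.18 (SE 0.29). Mesothelial markers had a median of -0.06 over 7 of 8 genes, 1 higher (Wt1, at 0.16, SE 0.24) and 6 lower. Summed intensities over 6 complete genes were 1627 to 2165 in the knockout and 1666 to 2656 in the wildtype arrays. Upk3b and Msln were near background on 3 arrays each, and Bnc1 and Krt19 led with -0.25 (SE 0.21) and -0.18 (SE 0.18). Krt19, without a value in wildtype replicate 3, read 14.06 to 14.37, above every other tested gene of the list. Which cells gave its signal was not tested. The part of macrophages and mesothelium in the Lyve1 and Pdpn values was not tested.

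**Figure D3:**
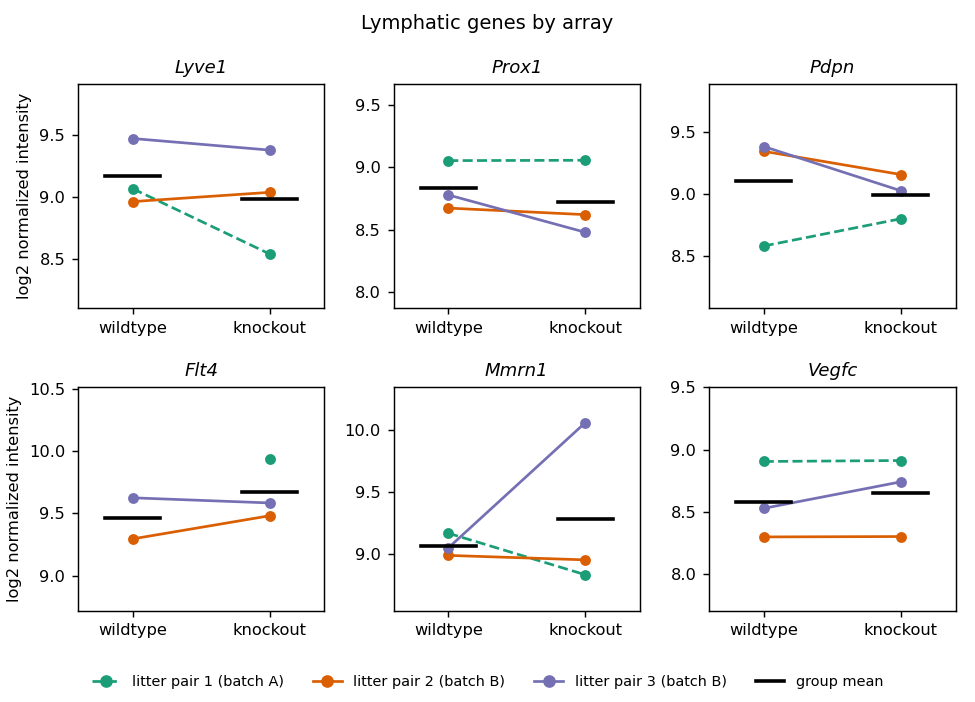
Log2 normalized intensity (vertical axes, each spanning 1.8 log2 units) of the 6 lymphatic genes in wildtype and knockout arrays, joined by litter pair, with group means as black bars. Flt4 lacks wildtype replicate 1, and Mmrn1 reads 10.06 in knockout replicate 3 and at most 9.17 elsewhere.

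Batch moved several endothelial genes further than label did. With label in the fit, batch B minus batch A exceeded 0.5 in size for 9 of 32 members, against 36.2% of all genes. Cd93, Sox7, Tie1, Sox18 and Pdpn were brighter in batch B by 0.54 to 0.85, and Nos3, Angpt2, Emcn and Esam dimmer, at -0.97 to -0.59. Angpt2, for example, read 9.03 and 8.96 in the 2 arrays of pair 1 and 7.90 to 8.28 in the 4 others. Batch A is 1 pair of embryos, so date and pair cannot be told apart. With batch as a block the median SE over members was 0.12, against 0.22 without one, and Vwf was again the member with the largest difference.

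**Figure D4:**
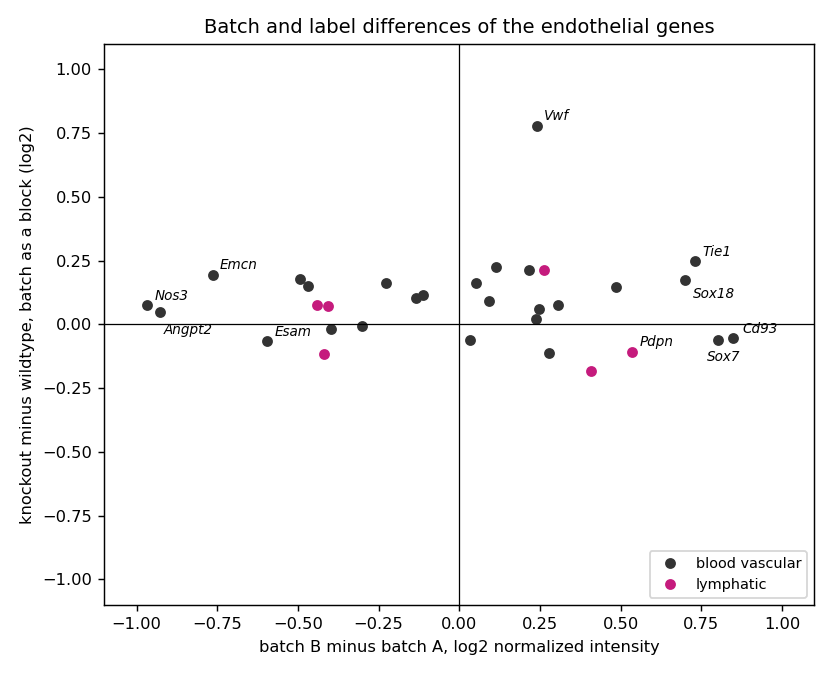
Batch B minus batch A (horizontal axis) and knockout minus wildtype with batch as a block (vertical axis), both in log2 normalized intensity, for the 32 tested endothelial genes, on equal scales. The points spread from -0.97 to 0.85 along the batch axis and, apart from Vwf at 0.78, lie within 0.25 of 0 along the label axis.

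Other vascular genes, from lists that do not overlap with the members, gave no call either. Of 24 tested genes of endothelial signalling (25 listed) 10 were higher and 14 lower, with a median of -0.03. The genes with the largest test statistics were Epas1, a hypoxia-inducible factor, at -0.32 (SE 0.26) and Nfatc1 at -0.17 (SE 0.19). Of 27 tested structural endothelial genes (30 listed) 12 were higher and 15 lower, with a median of -0.01, led by Stab2, a scavenger receptor of sinusoidal endothelium, at 0.39 (SE 0.19) and the fatty acid binding protein gene Fabp4 at -0.40 (SE 0.27). Of 12 tested further lymphatic genes 6 were higher and 6 lower, led by Reln at 0.47 (SE 0.41) and Sema3a at -0.15 (SE 0.15). In each of these lists 0 genes had an adjusted p under 0.05, and without a block 0 had an unadjusted one. With the litter pair as a block, Stab2, higher in every pair, had an unadjusted p of 0.0255 and Nrp2, a VEGF-C co-receptor gene lower in every pair that stands in the signalling and the lymphatic list, one of 0.0289 (limma adjusted p = 1 for both). No other gene of these lists had one under 0.05 in that fit, where 4.53% of all genes did. Of all genes 11.5% were higher and 11.6% lower in every pair. Pericyte and mural markers, listed for the cells that wrap capillaries, had a median of -0.03 over 12 genes (13 listed), 4 higher and 8 lower. Anpep at 0.30 (SE 0.27) and Higd1b at -0.23 (SE 0.24) led that list. Anpep read 12.52 to 13.44, above every other tested gene of the list, and which cells gave its signal was not tested. Erythroid markers had a median of 0.06 over 8 genes (12 listed), 4 higher and 4 lower, with Alas2, the haem synthesis enzyme of red cells, at -0.34 (SE 0.17) and Kel at 0.33 (SE 0.20).

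Most liver markers read highest in 1 array, knockout replicate 1. Exceptions were Ttr, at 13.18 against 13.44 in knockout replicate 2, and Apob, at 12.88 against 13.62 in wildtype replicate 1. Of 10 tested genes (12 listed) 10 differed above 0, led by Afp at 1.16 (SE 0.85) and Fgg at 0.92 (SE 0.69). Their median difference was 2.57 in pair 1 and -0.12 and -0.29 in pairs 2 and 3, and Alb, the albumin gene, differed by 5.15 in pair 1. In the same pair Stab2 and Lyve1, which liver sinusoids express, differed by 0.62 and -0.52, and Vwf by 1.00. The part of liver tissue in these values was not tested, and in pairs 2 and 3 Vwf differed by 0.33 and 1.01 and Stab2 by 0.18 and 0.38.

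Of the tissue lists, 3 of 9 stomach epithelium genes were lower at an unadjusted p under 0.05, where 0.257% of all genes were. Tff2 at -1.49 (SE 0.25) and Gast at -0.74 (SE 0.21) led them. At the same level 1 of 5 intestinal epithelium genes was higher, where 0.871% of all genes were. This was Mep1b at 0.75 (SE 0.31), followed by Vil1 at 0.48 (SE 0.35). Spots were saturated on 6 arrays for Tff1 and Fabp1 and on 5 for Gkn2, which limits the differences these genes could show. Smooth muscle genes had a median of 0.01, with Cnn1 at -0.22 (SE 0.18) and Synpo2 at -0.15 (SE 0.16). None had a limma adjusted p under 0.05. The part of tissue makeup in the endothelial values was not tested.

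**Figure D5:**
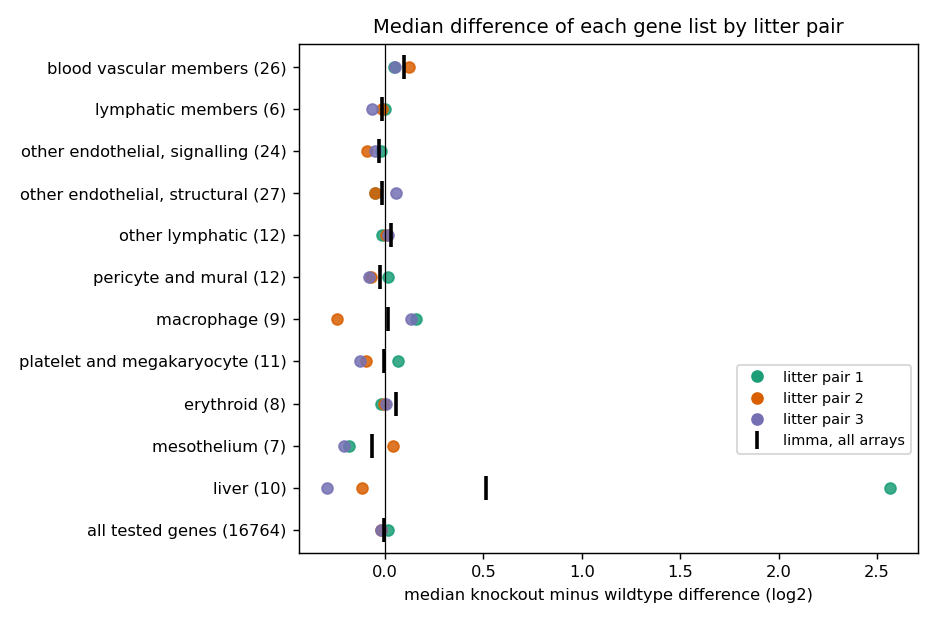
Median knockout minus wildtype difference (log2, horizontal axis) of the endothelial members and of other cell type lists, with the number of tested genes in brackets. Points are litter pairs and black ticks the limma value over all arrays. The 3 pairs of the blood vascular members lie between 0.04 and 0.12, while liver markers reach 2.57 in pair 1.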

How the data were processed

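The authors' scanner tables come from CodeLink Expression Analysis 5.0.0, per the file headers, and hold the spot mean and the local background median intensity of each spot, not normalized. In the deposited series table, intensity is linear, background-subtracted and scaled to each array's median. Its column medians lie between 0.997 and 1, and 93.4% to 96.9% of its gene probes lie within 1% of the scanner files' normalized value.

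Background was corrected by normexp (offset 50) in limma, and the 34967 gene probes were then quantile normalized and put on the log2 scale. Masked, irregular and contaminated spots, 0.418% to 3.34% per array, were treated as missing. A probe was tested if not near background on at least 3 arrays and with at least 2 values per group, which left 30207 probes and 16764 genes, each read from its brightest probe. Symbols came from the platform annotation, updated through RefSeq (GRCm38.p6), and 22114 probes had 1. No build is given in the sources used here for the array, so probe coordinates are not printed.

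The label effect was fitted in limma 3.58.1 under R 4.3.3 over all 6 arrays without a block, with Benjamini-Hochberg adjustment over all genes at 0.05, after a check on simulated data. The simulated differences were far larger than those of the members, so that check does not bear on differences of the size seen here. Nothing beyond separate embryos is stated about replication. The arrays were paired by the animal codes. Across genes, the 2 arrays of a pair deviated from their group means with correlations of 0.782, 0.401 and 0.571 in pairs 1, 2 and 3. Both arrays of a pair lie in the same batch, so these correlations cannot tell pair from batch and do not test the pairing. Batch is the date in the processed files, an analysis or a table date, not an extraction. Lists were described by counts and medians. The members and lists were chosen with earlier results of these data known. Array values are given in the text for every lymphatic member, for each other member with 1 sign in all pairs and a difference of at least 0.3, and for Pecam1 and Kdr; of each other list the 2 genes with the largest moderated t are named. Array values of Vegfa, Tie1, Robo4 and Angpt2, and markers named beyond the 2 per list, were added after they were seen. The alternatives were other normalizations, the authors' values with pseudocounts of 0.1 and 0.5, background, filter, flag and probe choices, blocks, array weights, and arrays or pairs left out.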

Additional observations from a re-analysis of the deposited data

How the results depend on the processing

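Of 16764 genes 0 passed, and of the members 0, in every alternative but REML array weights, where 677 genes and 1 member (Vwf) did. The lowest REML weight was 0.166 (wildtype replicate 1) and the highest 6.96 (wildtype replicate 3). Gene by gene weights called 0. With the litter pair as a replicate block the counts were 0 and 0, and 1 member (Vwf) had an unadjusted p under 0.05, where 4.53% of all genes had one; no call changed. The median difference of the blood vascular members stayed between 0.06 and 0.13 over the settings with all arrays and between 0.05 and 0.13 with arrays or pairs left out. With the litter pair block the blood vascular and lymphatic medians were 0.10 and -0.02. That of the lymphatic members, -0.02, has no settled sign. Under median scaling and the authors' values the median of all genes was itself 0.025 to 0.033. The lymphatic median was 0.031 within batch B, 0.032 with median scaling and 0.029 with the authors' per-sample intensities. It was 0.036 and 0.029 with the series table at pseudocounts of 0.1 and 0.5, and 0.025 with the mean of a gene's probes. It was -0.11 (5 genes) where all 6 arrays had to be above background and -0.071 with REML array weights. With arrays or pairs left out it was -0.068 to 0.10. The cause was not tested. The count of members with 1 sign in all pairs, 8 of 29, was 13 with median scaling, 13 with the series table at either pseudocount and 12 with the authors' per-sample intensities, where 24.8%, 24.3% and 24.3% of all genes had 1 sign. Of 28 members fitted in each of 22 alternatives 8 (28.6%) kept their sign, namely Vwf, Kdr, Tie1, Sox17, Robo4, Erg, Egfl7 and Gata2, against 26.1% of 14613 genes. Leaving out pair 1 is the fit within batch B and is counted once. Signal limits Flt1 and Angpt1, which gave 0.10 and 0.08 without the filter on dim probes.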

Other observations

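Nrp2, which encodes a co-receptor for VEGF-C on lymphatic and venous endothelium, was lower in the knockout array by nearly the same amount in every litter pair, -0.33, -0.32 and -0.28. It read 7.25, 8.19 and 8.01 in wildtype replicates 1 to 3 and 6.91, 7.88 and 7.73 in knockout replicates 1 to 3, so the groups overlap and the difference shows within pairs. The limma difference was -0.31 (SE 0.35, adjusted p = 1), and with the litter pair as a block it had an SE of 0.11 (unadjusted p = 0.0289, adjusted p = 1). With that block 4.53% of all genes had an unadjusted p under 0.05. Of all genes 11.6% were lower in every pair. Nrp2 was picked out after its values were seen.

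Reln and Mmrn1, both made by lymphatic endothelium, gave their widest pair difference in pair 3, at 1.15 and 1.01, where knockout replicate 3 read 10.13 and 10.06. The other lymphatic genes were mixed in pair 3. Gja1 differed by 0.53, Foxc2 by 0.43, Ccbe1 by 0.32 and Vegfc by 0.21, each its highest pair, while Prox1 differed by -0.30, Lyve1 by -0.09, Pdpn by -0.35 and Flt4 by -0.04. All were picked out after their values were seen.

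In pair 2 several endothelial genes of different roles differed far more than in the other pairs, namely Tspan7 by 1.38, Nrp1 by 1.15 and Pecam1 by 1.04, against -0.59, -0.23 and -0.46 in pair 1 and -0.01, -0.34 and -0.12 in pair 3. Over the same pair the median of the blood vascular members was 0.12. These genes were chosen after their values were seen, and no explanation was tested.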
